A study of Mus musculus with 4 samples.

Results

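AP-1 is a transcription factor made of pairs of basic leucine zipper (bZIP) proteins, in which a JUN protein (encoded by Jun, Junb and Jund) joins a FOS protein (encoded by Fos, Fosb, Fosl1 and Fosl2) or another JUN protein. Most of these genes are immediate early genes, which are transcribed within minutes of a growth factor, stress or cytokine signal without new protein synthesis, and whose mRNA is usually short-lived. A further 3 immediate early genes were described with them, namely Egr1 (a zinc finger transcription factor), Ier2 (a nuclear regulator of transcription) and Zfp36 (tristetraprolin, a protein that binds AU-rich mRNA and speeds its decay). In breast cancer, FOSL1 is known for its link to mesenchymal features and metastasis. These 10 genes were taken by gene name from the 56748 genes of the count table, not by their values, and all 10 passed the expression filter that left 15320 tested genes.

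The mice were female BALB/cJ, 7 weeks old when 4T1-FLuc cells, a mouse triple-negative breast cancer (TNBC) line that expresses firefly luciferase, were injected into the tail vein. All 4 samples carried this tumor in the lung. The 2 saline samples (named PBS control in the treatment label) were compared with 2 samples from mice given CD276-DM1, an antibody to CD276 loaded with mertansine, which blocks microtubules, together with cmLumiOpto, a gene therapy in which a luminescence-driven channel depolarizes mitochondria. The labels give 16 mg/kg of the antibody-drug conjugate (ADC), more than the study's methods do, add the abbreviation Olap to the treatment, and name tumor cells harvested after 3 weeks, whereas the methods describe whole lung tissue that was dissociated with enzymes. Which of these holds could not be settled from the labels.

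Total counts were between 15263375 and 19675436 per sample, so that 3 counts stood for 0.146 to 0.202 CPM (counts scaled to a common library size with edgeR's TMM factors), a floor for counting error only. Markers of lung tissue were present in every sample, and several moved with the groups. The 8 alveolar and airway epithelium markers were all higher after ADC/cmLumiOpto and summed to 423 to 2690 CPM with saline and 7809 to 11698 CPM after treatment (Sftpd, Hopx and Ager had the smallest p). The highest levels after treatment were those of Scgb1a1 and Sftpc, genes of club cells and type II alveolar cells. All 7 fibroblast markers, among them Col1a1, Col1a2 and Pdgfra, were lower, with sums of 3544 to 5151 CPM and 1459 to 1767 CPM. The 6 neutrophil markers (S100a9, Ly6g and Csf3r had the smallest p) set a single sample apart, at 7853 CPM in ADC/cmLumiOpto replicate 2 against 464 to 1141 CPM in the other 3 samples. Keratin and epithelial adhesion genes, listed as 4T1 or epithelial tumor markers (Krt14, Cdh1 and Krt18 had the smallest p), summed to 2906 to 3242 CPM and 2775 to 2852 CPM. Of these, 3 were higher and 3 lower after treatment, and the parts of tumor and lung epithelium in the sums were not tested. None of the markers in these 4 lists was at 0. In such bulk samples, fewer cells of a type and less RNA per cell cannot be told apart.

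The promoters of 7 of the 10 genes were in the RefSeq table used here (GRCm38.p6), and those of Egr1, Ier2 and Fosl1 were not. The 120 bases before the start are shown for Fos and its paralog Fosb, whose log2 fold changes were -0.30 and -1.40, and for Jun and Zfp36, which varied most between the 2 treated samples. Capitals mark matches, on either strand, to the cyclic AMP response element core TGACG, the EGR1 site GCGGGGGCG, the TATA box (letters TATAAA), the box that NF-Y binds (letters CCAAT), or the CArG box bound by serum response factor.
Fos: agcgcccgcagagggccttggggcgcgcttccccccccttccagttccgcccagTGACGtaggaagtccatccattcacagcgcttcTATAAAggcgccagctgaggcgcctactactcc
Fosb: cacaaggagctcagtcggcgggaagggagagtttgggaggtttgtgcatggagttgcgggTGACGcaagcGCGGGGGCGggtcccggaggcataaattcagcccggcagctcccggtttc
Jun: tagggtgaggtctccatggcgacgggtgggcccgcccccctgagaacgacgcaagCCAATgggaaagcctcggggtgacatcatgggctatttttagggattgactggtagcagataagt
Zfp36: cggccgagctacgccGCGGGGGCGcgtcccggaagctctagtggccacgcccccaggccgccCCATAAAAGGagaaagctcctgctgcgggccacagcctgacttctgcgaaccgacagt

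These stretches lie on GRCm38.p6 at chr12:85473770-85473889 (plus strand), chr7:19310046-19310165, chr4:95052223-95052342 and chr7:28379229-28379348 (minus strand for the last 3), and are written 5′ to 3′ along the gene. Fos and Fosb each carried a TGACG at a similar place, 66 and 60 bases before the start, and Fosb also carried an EGR1 site 50 bases before it. Zfp36 carried an EGR1 site at 105 bases and a CArG box at 58 bases. In windows of 250 bases before to 50 bases after the start, TGACG was found in the promoters of Fos, Fosb and Junb, and in 20.8% of all 32851 promoters of that length. The EGR1 site was found in Fosb, Fosl2 and Zfp36 and in 2.91% of all promoters. The CArG box was found in Zfp36 and in 1.63%. Bases farther than 250 before the start were not searched, so sites there would be missed. Neither the full element TGACGTCA, which contains TGACG, nor the AP-1 site TGANTCA was found in any of the 7 windows (1.79% and 7.81% of all promoters). Only these exact letters were searched, so a variant such as tgacatca in the Jun stretch above was not marked. The letters TATAAA and the NF-Y box were found in 2 each (13.6% and 37.4%). In Fos, TATAAA began 33 bases before the start, whereas in Junb it began at the start itself.

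AU-rich sequence, which the choice of genes did not use, was present in some of these mRNAs and not in others. TATTTAT, the core of the site that ZFP36 binds, was present in the 3′ UTR of 7 of the 10 genes in the GENCODE M21 transcripts (the isoform with the longest 3′ UTR was taken), and in 30.2% of 13450 tested genes with such a region (19.8% of those with 500 to 1000 bases of it and 32.4% with 1000 to 2000). The longer form TTATTTATT, which contains the first, was present in Fos, Fosl2 and Zfp36, and in 8.02% of the tested genes (4.59% and 8.01% in the same 2 length bands). The regions of Fosl2 (4653 bases) and Fosb (2302 bases) are longer than both bands, and a longer region has more room for a match. Junb, Egr1 and Ier2 had no TATTTAT, and Ier2 had no ATTTA either. The site is shown in capitals for the 3 genes with the long form and for Fosl1 and Fosb, the genes with the largest fold changes.
Fos: gttttcaatTTATTTATTaagatggatt
Fosl2: tttattttaTTATTTATTttaaatgttt
Zfp36: atgacgactTTATTTATTgtattaagat
Fosl1: gggcagctgcTATTTATtttcctaaaga
Fosb: cacccccagcTATTTATccctttcctgg

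In each sample, Junb was the most abundant of the 10 genes per length. Levels per length are CPM divided by the gene length listed in the count table, in kilobases (CPM per kb). Junb was at 128 ± 11.1 CPM per kb with saline (SD, n = 2) and at 109 ± 18.8 CPM per kb after ADC/cmLumiOpto (SD, n = 2). Averaged over the 4 samples, Ier2 (56.0 CPM per kb), Jund (44.4) and Jun (36.1) followed. The samples of these 3 genes lay apart from each other in the saline group, whereas in the treated group Ier2 overlapped Jund and Jund overlapped Jun. Zfp36 (12.2 CPM per kb) and Fosl2 (11.6) came next. Their samples overlapped in the treated group, whereas both saline samples were higher for Fosl2 (12.9 and 12.7 CPM per kb) than for Zfp36 (10.8 and 7.93). Egr1 (6.41), Fos (6.39) and Fosl1 (5.77) could not be ordered in the saline group, where their samples overlapped. Fosb was the least abundant, at 0.923 ± 0.0537 CPM per kb (SD, n = 2) and 0.347 ± 0.106 CPM per kb (SD, n = 2). Without the division by length, Fosl2, the longest gene of the 10, moved from rank 6 to rank 3.

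**Figure D1:**
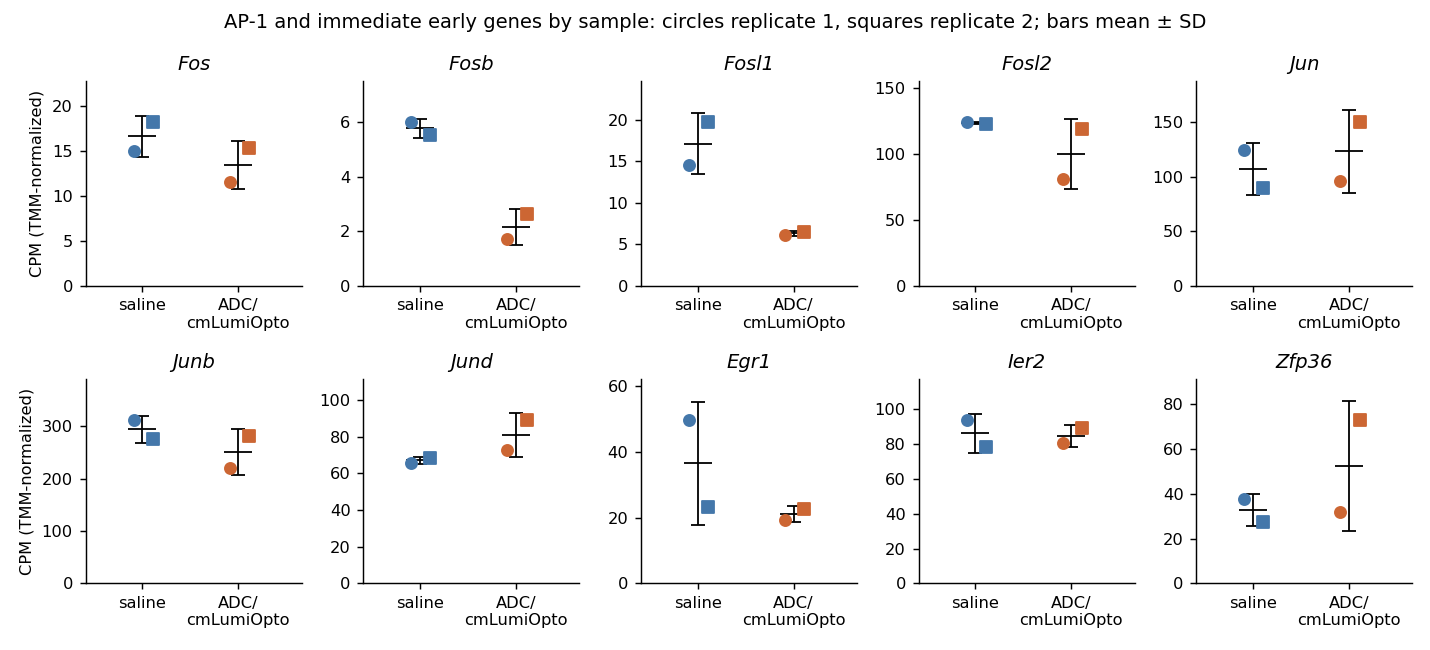
TMM-normalized CPM of each of the 10 genes in the 2 saline (blue) and 2 ADC/cmLumiOpto (orange) samples, with the mean and SD of each group as black bars and an axis from 0 for each gene. Fosb and Fosl1 lay lower in both treated samples by a wide gap, whereas Zfp36 was at 73.0 CPM in ADC/cmLumiOpto replicate 2 and between 27.5 and 37.6 CPM in the other 3 samples.

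To examine the effect of ADC/cmLumiOpto, the groups were compared by edgeR's quasi-likelihood test in a fit of all tested genes. An adjusted p under 0.05 was reached by 0 of the 10 genes, as by 0% of all tested genes. At an unadjusted p under 0.05 there were 2 of 10, Fosl1 and Fosb, where 23.2% of all tested genes passed (12.2% lower and 11% higher). Groups did not overlap for 4 genes that were lower (Fosb, Fosl1, Fosl2 and Egr1) and for 1 that was higher (Jund). The shares over all tested genes were 28.8% for lower and 28.1% for higher, so these counts were near the background. The median log2 fold change of the 10 genes was -0.27, with 7 lower and 3 higher, beside a median of 0.028 over all tested genes. With 2 samples against 2, an exact permutation test of a single gene cannot give a two-sided p under 0.333.

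**Figure D2:**
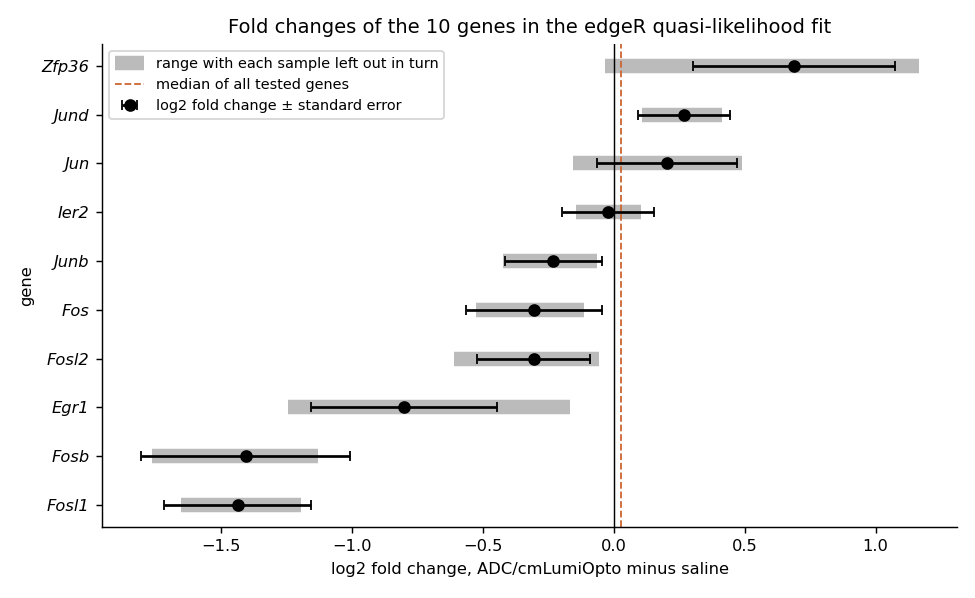
Log2 fold change (ADC/cmLumiOpto minus saline) of each gene with its standard error in the edgeR fit (black), and the range of the fold change with each of the 4 samples left out in turn (grey); the dashed line is the median of all tested genes, 0.028. The ranges of Fosl1 (-1.65 to -1.19) and Fosb (-1.76 to -1.13) stayed far below 0, that of Fosl2 ran from -0.61 to -0.056, and those of Zfp36 (-0.035 to 1.16), Jun (-0.16 to 0.49) and Ier2 (-0.15 to 0.10) crossed it.

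Among the FOS genes, Fosl1 and Fosb showed the largest differences. Fosl1 (ENSMUSG00000024912, chromosome 19, 5497575 to 5505974 as positioned in the count table, whose build the processing notes give as mm39) encodes FRA-1, a FOS protein without the strong activation domain of FOS. It was at 14.5 and 19.7 CPM in the saline samples and at 6.12 and 6.53 CPM in the treated samples (232, 293, 108 and 134 counts). Both treated samples were below both saline samples, and they were close to each other. The log2 fold change, the log2 ratio of ADC/cmLumiOpto to saline, was -1.43 (SE 0.28, edgeR quasi-likelihood adjusted p = 0.116), a level 2.70-fold lower. Its adjusted p was under 0.05 in 4 of 12 alternatives, among them the edgeR exact test (adjusted p = 0.00384) and DESeq2 (adjusted p = 0.00195), over a range of 4.55e-04 to 0.375. The exact test called 2 of the 10 genes, where it called 7.64% of all tested genes, and DESeq2 called 1, where it called 9.99%. The gene shares part of its span with Ccdc85b on the opposite strand, which had more counts after treatment (672 and 568 against 927 and 936), and whether the authors' counting used strand is not given in the sources used here.

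Fosb (ENSMUSG00000003545, chromosome 7, 19036621 to 19043976) encodes a protein close to FOS, with a truncated form that lacks the end of the protein. It was at 6.001 and 5.53 CPM in the saline samples and at 1.7002 and 2.63 CPM in the treated samples, or 96, 82, 30 and 54 counts. The saline samples agreed closely, and the treated samples lay apart from them and differed from each other. The log2 fold change was -1.40 (SE 0.40, edgeR quasi-likelihood adjusted p = 0.133). Its adjusted p was 0.0436 in the edgeR exact test and 0.0613 in DESeq2, and ranged from 0.0250 to 0.444 over all alternatives.

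Fos itself (ENSMUSG00000021250, chromosome 12, 85520664 to 85524047), the founding member of the family, was at 15.004 and 18.2 CPM in the saline samples and at 11.6 and 15.3 CPM in the treated samples. The groups overlapped, since ADC/cmLumiOpto replicate 2 lay just above saline replicate 1, and the log2 fold change was -0.30 (SE 0.26, adjusted p = 0.511), with -0.11 without ADC/cmLumiOpto replicate 1 and -0.53 without ADC/cmLumiOpto replicate 2. Fosl2 (ENSMUSG00000029135, chromosome 5, 32293145 to 32315186), which encodes FRA-2, was at 125 and 123 CPM in the saline samples and at 81.4 and 119 CPM in the treated samples. The treated samples were both lower, although ADC/cmLumiOpto replicate 2 missed the saline samples by little. Its log2 fold change was also -0.30 (SE 0.22, adjusted p = 0.423), and it was -0.056 without ADC/cmLumiOpto replicate 1 and -0.61 without ADC/cmLumiOpto replicate 2. Once the trend of each sample's centred log2 CPM on gene length was removed in the fit, it was -0.067. Fosl2 has the longest listed length of the 10, and over all tested genes longer genes were lower after treatment (Spearman's rho -0.34, across genes, which are not independent replicates).

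The JUN genes differed less between the groups than Fosl1 and Fosb, as values rather than by a test of that difference. Junb (ENSMUSG00000052837, chromosome 8, 85701113 to 85705347), which encodes a JUN protein of weaker activity than JUN on single AP-1 sites, was at 313 and 277 CPM in the saline samples and at 220 and 282 CPM in the treated samples. The groups overlapped, and the log2 fold change was -0.23 (SE 0.19, adjusted p = 0.484), with -0.064 without ADC/cmLumiOpto replicate 1 and -0.42 without ADC/cmLumiOpto replicate 2. Jun (ENSMUSG00000052684, chromosome 4, 94937271 to 94940459) was at 124 and 89.8 CPM in the saline samples and at 96.2 and 150.0 CPM in the treated samples. The spread within each group was larger than the difference between the means, and the log2 fold change of 0.20 (SE 0.27, adjusted p = 0.674) was -0.16 without ADC/cmLumiOpto replicate 2 and -0.0080 without saline replicate 2. Jund (ENSMUSG00000071076, chromosome 8, 71151599 to 71153265), the most steadily expressed JUN gene in most tissues, was at 65.8 and 68.4 CPM in the saline samples and at 72.5 and 89.2 CPM in the treated samples. Both treated samples were higher, with a log2 ratio of 0.27 (SE 0.18, adjusted p = 0.389), which was 0.11 without ADC/cmLumiOpto replicate 2, 0.41 without ADC/cmLumiOpto replicate 1 and 0.016 with the length trend removed. Junb also shares part of its span with a gene on the opposite strand, Prdx2, which had 6678 to 10706 counts per sample, and Jun with Junos, which had 81 to 192.

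The makeup of the AP-1 mRNA pool was compared as the share of each gene in the summed CPM per kb of the 7 FOS and JUN genes. JUN genes made up 88.7% and 85.9% of the pool with saline and 91.1% and 90.9% after treatment. Junb alone made up 49.9% to 56.3%, and its share was lower in both treated samples. The share of Fosl1 was 2.95% and 4.41% with saline and 1.62% and 1.31% after treatment. The share of Jund was 16.3% and 18.6% with saline and 23.4% and 21.8% after treatment. The share of Fos was 2.64% to 2.65% in 3 samples and 3.51% in saline replicate 2. These shares describe mRNA, not protein, and were not tested.

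**Figure D3:**
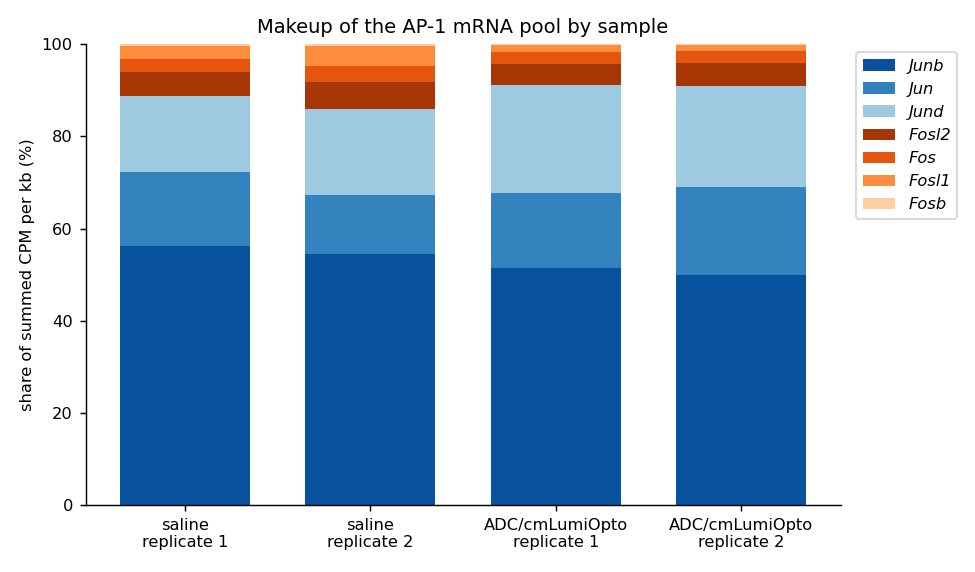
Share (%) of each FOS gene (orange) and JUN gene (blue) in the summed CPM per kb of the 7 AP-1 genes, 1 stacked bar from 0 to 100% per sample. Junb is the largest part of every bar (49.9% to 56.3%), and the FOS genes together make up 11.3% and 14.1% with saline and 8.93% and 9.14% after treatment.

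Of the 3 immediate early genes outside AP-1, Egr1 and Zfp36 were each set by a single sample, and the samples of Ier2 overlapped. Egr1 (ENSMUSG00000038418, chromosome 18, 34992876 to 34998037), a target of the ERK pathway through serum response factor, was at 49.7 and 23.3 CPM in the saline samples and at 19.3 and 22.7 CPM in the treated samples. Saline replicate 1 stood above the other 3 samples, which lay between 19.3 and 23.3 CPM. The log2 fold change was -0.80 (SE 0.35, adjusted p = 0.234), and it was -0.17 without saline replicate 1 and -1.24 without saline replicate 2. Ier2 (ENSMUSG00000053560, chromosome 8, 85387960 to 85389483) was at 93.8 and 78.2 CPM in the saline samples and at 80.2 and 89.2 CPM in the treated samples. The treated samples lay between the saline samples. Its log2 fold change was -0.022 (SE 0.18, adjusted p = 0.954) and took the opposite sign with library size, upper-quartile factors or a stricter count filter. With the length trend removed, the log2 fold change of Ier2 was -0.29.

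Zfp36 (ENSMUSG00000044786, chromosome 7, 28076209 to 28079678) was at 37.6 and 27.5 CPM in the saline samples and at 31.9 and 73.0 CPM in the treated samples. Only ADC/cmLumiOpto replicate 2 was high, and the other treated sample lay between the saline samples. The log2 fold change was 0.69 (SE 0.39, adjusted p = 0.321), and it was -0.035 without ADC/cmLumiOpto replicate 2. That sample also had the high sum of neutrophil markers given above, a cell type in which Zfp36 is known to be expressed, and the part of these cells in the value was not tested. The nearest of the other genes to Zfp36 was Jun, with a root mean square difference of 0.28 between their centred log2 CPM over the 4 samples, and it was 1.11 from Fosl1.

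All 10 genes were higher in ADC/cmLumiOpto replicate 2 than in replicate 1, by 0.093 (Fosl1) to 1.19 (Zfp36) on the log2 scale. Over all tested genes, 52.0% were higher in replicate 2, with a median difference of 0.019. A log2 difference at least as large as that of Zfp36 was seen in 4.27% of tested genes, and one at least as large as that of Jun (0.64) in 11.4%. Between the saline samples, 3 of the 10 genes were higher in replicate 2, and the largest difference was that of Egr1 (-1.09), with 6.18% of tested genes at or below it. The heat shock genes, which can be induced by tissue dissociation as immediate early genes can, went the other way between the treated samples, with 0 of 10 higher in replicate 2 and a median of -0.42. The list of 37 other early response genes had 28 higher in replicate 2 (75.7%). These values compare single samples, have no replicate check, and their relation to dissociation or handling was not tested.

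Likeness between the genes was measured by the same root mean square difference over the 4 samples. The closest pair was Fosl2 and Junb (0.099), followed by Fos and Fosl2 (0.12) and Junb and Ier2 (0.13). Fosl1 and Fosb were nearest to each other (0.27), and Fosl1 and Zfp36 were the farthest pair. Outside the 10 genes, Ccn1 (0.0069), itself an immediate early gene that encodes a matrix protein, Tpm3 (0.012) and Plekhn1 (0.020) were nearest to Fos among all tested genes. Nearest to Jun were 2700038G22Rik (0.019), Cped1 (0.024) and Gm8741 (0.027). Counts were low for 2700038G22Rik (11 to 26 per sample) and Gm8741 (8 to 19), so counting error weighs on their match. The genes named were the nearest of 15320 genes over only 4 samples, and no test was made of the likeness.

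Other early response genes went in both directions. Of 40 genes listed, 37 were tested, 23 were lower and 14 higher, the median log2 fold change was -0.13, and 0 had an adjusted p under 0.05 (at an unadjusted p under 0.05, 5 were lower and 4 higher, beside 12.2% lower and 11% higher of all tested genes, so the count was near the background). Dusp4 and Dusp5, phosphatases that switch off ERK and are themselves induced by it, were at 102 to 121 CPM and 29.6 to 34.0 CPM in the saline samples and at 50.3 to 58.2 CPM and 16.3 to 16.5 CPM in the treated samples. Their log2 fold changes were -1.04 (SE 0.18) and -0.95 (SE 0.19). Gadd45b, a stress-induced gene, was at 7.14 to 9.50 CPM and 21.03 to 27.2 CPM, with a log2 ratio of 1.53 (SE 0.27). Each of the 3 had an adjusted p of 0.116, the smallest of any tested gene. Zfp36l2, a relative of Zfp36 named after its values were seen, had a log2 ratio of -0.97 (SE 0.20, adjusted p = 0.116), and Zfp36l1 had one of -0.084 (SE 0.24, adjusted p = 0.861).

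Among 12 other bZIP genes whose proteins pair with FOS or JUN or bind related sites, 7 were lower and 5 higher (median -0.085, 0 with an adjusted p under 0.05). At an unadjusted p under 0.05 there were 3 higher and 1 lower, beside 11% higher and 12.2% lower of all tested genes. Atf3, a stress-induced immediate early gene, was at 8.88 and 7.08 CPM in the saline samples and at 19.3 and 14.2 CPM in the treated samples, with a log2 ratio of 1.07 (SE 0.29, adjusted p = 0.124). Batf, an AP-1 factor of lymphocytes and dendritic cells, had a log2 ratio of 1.18 (SE 0.36, adjusted p = 0.143), and Atf7 one of -0.83 (SE 0.23, adjusted p = 0.128). The 7 lymphocyte markers, of which Cd3d, Cd79b and Cd3g had the smallest p, summed to 8.22 to 25.7 CPM with saline and 31.1 to 60.8 CPM after treatment, and Klrb1c was at 0 in saline replicate 2. The part of these cells in the Batf value was not tested.

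Upstream of the immediate early genes, kinases of the MAP kinase cascades phosphorylate factors such as ELK1 that act with serum response factor (Srf) on their promoters. Of 21 such genes tested, 17 were lower and 4 higher (median -0.20, 0 with an adjusted p under 0.05). Longer genes were lower over all tested genes, as given above, and that trend was not removed from these values. At an unadjusted p under 0.05 there were 7 lower and 1 higher, where the shares of all tested genes were 12.2% and 11%. Mrtfb, a coactivator of serum response factor, was at 51.0 and 49.5 CPM in the saline samples and at 21.5 and 30.8 CPM in the treated samples, with a log2 ratio of -0.94 (SE 0.21, adjusted p = 0.117). Elk3 and Map2k4, a factor and a kinase of these cascades, had log2 ratios of -0.68 (SE 0.18, adjusted p = 0.123) and -0.55 (SE 0.17, adjusted p = 0.146). Srf had one of -0.26 (SE 0.16, adjusted p = 0.350) and was named after its values were seen.

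Of 18 known AP-1 target genes, 13 were lower and 5 higher after ADC/cmLumiOpto, with a median log2 fold change of -0.55, and 0 had an adjusted p under 0.05 (6 lower and 2 higher at an unadjusted p under 0.05, beside 12.2% lower and 11% higher of all tested genes). Hbegf, a growth factor of the EGF family, was at 113 and 112 CPM in the saline samples and at 62.1 and 63.8 CPM in the treated samples, with a log2 ratio of -0.84 (SE 0.16, adjusted p = 0.116). Mmp3, a matrix metalloproteinase, was at 66.3 and 86.1 CPM in the saline samples and at 41.4 and 33.0 CPM in the treated samples, with a log2 ratio of -1.04 (SE 0.21, adjusted p = 0.116). Mmp12, a macrophage elastase, went the other way, from 38.8 and 23.9 CPM to 78.5 and 95.8 CPM, with a log2 ratio of 1.48 (SE 0.26, adjusted p = 0.116). Several of these genes are also expressed by fibroblasts or macrophages. The fibroblast sums are given above, and the 7 monocyte and macrophage markers (Lyz2, Mrc1 and Cd68 had the smallest p) summed to 2207 to 2447 CPM and 3112 to 4898 CPM, with 3 higher and 4 lower. Most of each sum was Lyz2, at 1687 and 1128 CPM with saline and 4299 and 2447 CPM after treatment. The higher treated sums therefore rest on this gene, and Mrc1 and Chil3 were lower (log2 ratios -0.98 and -1.39). The part of these cells in the values was not tested.

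Of 11 mRNAs that ZFP36 is known to destabilize, 6 were higher and 5 lower (median 0.13, 0 with an adjusted p under 0.05). At an unadjusted p under 0.05 there were 3 higher and 0 lower, beside 11% higher and 12.2% lower of all tested genes. Ccl2, a monocyte chemokine, was at 9.002 and 7.55 CPM in the saline samples and at 26.5 and 20.3 CPM in the treated samples, with a log2 ratio of 1.50 (SE 0.26, adjusted p = 0.116). Il1b and Cxcl1 had log2 ratios of 1.10 (SE 0.29, adjusted p = 0.1246) and 1.02 (SE 0.42, adjusted p = 0.213). The 10 heat shock genes had a median log2 fold change of 0.41, with 6 higher and 4 lower and 0 with an adjusted p under 0.05 (3 higher and 0 lower at an unadjusted p under 0.05, beside 11% and 12.2% of all tested genes). Hspa1b, an inducible HSP70, was at 39.9 and 29.1 CPM in the saline samples and at 58.7 and 56.5 CPM in the treated samples, with a log2 ratio of 0.74 (SE 0.20, adjusted p = 0.126), and Hspb1 and Hspe1 had values of 0.65 and 0.77. Endothelium markers, of which Cldn5, Vwf and Emcn had the smallest p, were higher for 5 of 6, with sums of 383 to 482 CPM and 485 to 707 CPM.

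**Figure D4:**
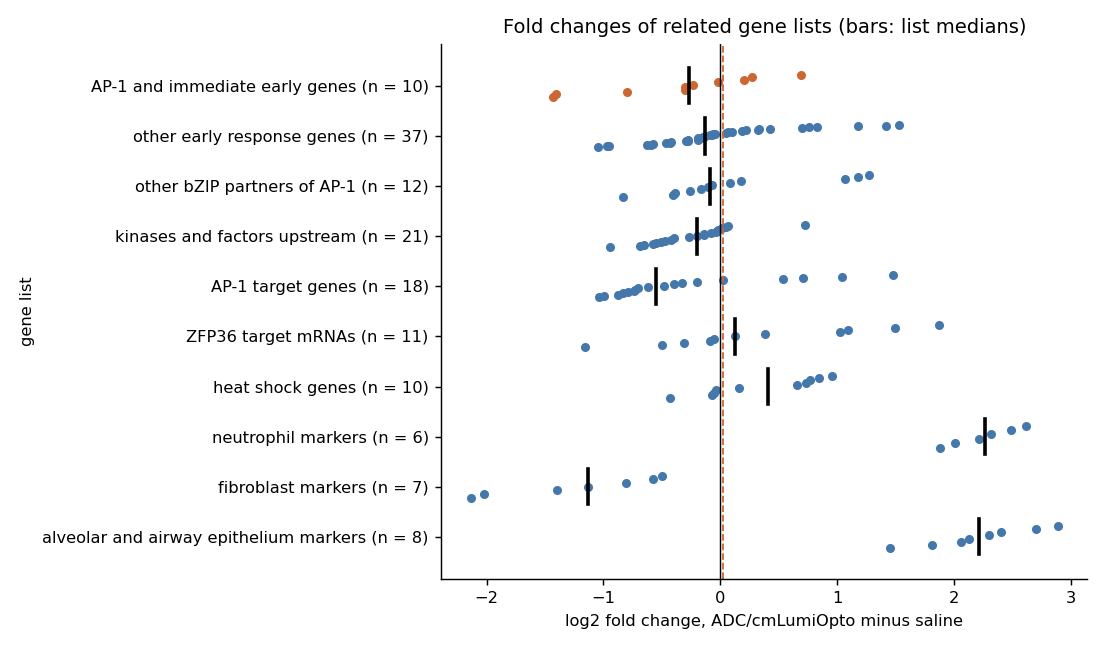
Log2 fold change (ADC/cmLumiOpto minus saline) of every tested gene of each list, 1 point per gene, with the list median as a black bar and the median of all tested genes as a dashed line. The 10 AP-1 and immediate early genes (orange, median -0.27) spread to both sides of 0, as did the other early response genes (median -0.13). AP-1 target genes had a median of -0.55, and fibroblast, neutrophil and alveolar and airway epithelium markers lay to one side. The neutrophil values rest on ADC/cmLumiOpto replicate 2, where these markers summed to 7853 CPM against 1141 CPM in ADC/cmLumiOpto replicate 1.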

How the data were processed

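Bulk poly(A) RNA sequencing of 2 saline and 2 ADC/cmLumiOpto samples was analyzed, grouped by sample title. The study's methods give 4 samples per group, whereas the count table holds 2 per group, and all of these were used. The deposited table holds unnormalized counts, 1 per gene and sample. The submitters' processing notes name HISAT2, HISAT, TopHat2 and the mm39 build, whereas the methods name HISAT2 and GRCm38. The counting program and its use of strand are not given in the sources used here. Of the 10 genes, 0 had the same start and end in GENCODE M21 (GRCm38), so table positions were not mixed with that build.

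Counts were filtered by filterByExpr (minimum count 10, minimum total 15), scaled by TMM and tested by glmQLFTest in edgeR 4.0.16 (R 4.3.3), with p-values adjusted by Benjamini-Hochberg over all 15320 genes. Standard errors (SE) are the fold change divided by the root of F. The prior count was 0.125 for fold changes and 2 for centred log2 CPM. Simulated counts with known log2 changes, larger than those of the 10 genes, served as a check of the fit. This check does not show how well changes of the size seen here would be found. Alternatives were DESeq2 1.42.0, other scalings, the exact test, other filters, a replicate block, removal of the length trend (lowess span 0.3) and leaving out each sample. No separate cultures or cages are labelled, so p-values measure only the spread between these samples. The genes and lists were chosen with earlier results of these data known. All 10 genes are named, and of every other list the 3 with the smallest p, and the 3 genes nearest to Fos and to Jun. A lymphocyte marker of the list is not reported here.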

Additional observations from a re-analysis of the deposited data

How the results depend on the processing

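The main test called 0 genes. The number of genes with an adjusted p under 0.05, and of the 10 genes among them, was 1353 and 1 in DESeq2 (which gave an adjusted p to 13537 genes), 1170 and 2 in the edgeR exact test, 2259 and 4 without a filter beyond 1 count, and 607 and 1 with the replicate number as a block. Of all genes tested in each setting, these were 9.99%, 7.64%, 8.84% (of 25563 genes) and 3.96%. The sample numbers are not known to pair animals (correlation of same-numbered deviations 0.099), and under the block Fosl1 had an adjusted p of 0.0412. Fosl1 was past the threshold in each of these 4 alternatives, Fosb in the exact test and without the filter, and Egr1 and Zfp36 without the filter, where their adjusted p was 0.0150 and 0.0291. Library size, upper-quartile factors, the stricter filter and removal of the length trend called 0 genes. With each sample left out, 0 to 218 genes were called, 218 without saline replicate 1, and 0 of the 10. The lone sample of a group was then taken to vary like the other group. The median of the 10 genes, -0.27, was below 0 in all 12 alternatives, but it was -0.060 without ADC/cmLumiOpto replicate 1, -0.16 without saline replicate 1 and -0.47 without ADC/cmLumiOpto replicate 2, so its size rests on single samples. With the length trend removed, this median was -0.35. Fos (-0.47), Junb (-0.41), Fosl1 (-1.65) and Ier2 (-0.29) were then farther from 0 than in the main fit. The others of the 10 genes were nearer to 0.

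The sign of a fold change turned for 3 genes. For Ier2 the log2 fold change was 0.025 with library size, 0.061 with upper-quartile factors and 0.016 with at least 10 counts in every sample, with a range of -0.15 to 0.10 when samples were left out. For Jun the range with each sample left out was -0.16 to 0.49 and for Zfp36 -0.035 to 1.16. The cause was not tested. Fos, Fosb, Fosl1, Fosl2, Junb, Egr1 and Jund kept their direction in all 12 alternatives.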
